A study of Mus musculus with 8 samples.

Results

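The genes described here encode the replicative helicase of mouse embryos and the factors that load and activate it: Mcm2, Mcm3, Mcm4, Mcm5, Mcm6 and Mcm7, Mcm10, Cdc45, Cdc6 and Cdt1. They are 10 of the 23014 genes that could be named in both expression tables, and they were taken by name, a choice made with earlier results of these data known. Embryos grown in KSOM medium were taken for RNA sequencing 70 h (8-cell) and 78 h (morula) after the mothers received hCG, with 2 libraries in each of 4 groups. Control embryos carry the label WT, and TMZ embryos were cultured from the 2-cell stage with 100 µM trimetazidine (TMZ), which blocks the last step of long-chain fatty acid β-oxidation, the thiolase reaction. The study reported arrest and delayed development of TMZ embryos. Whether TMZ and control embryos taken at the same hour stood at the same point of development was not tested. The mice were of the ICR stock, and whether the controls received a vehicle is not given in the sources used here. The labels do not say how many embryos went into a library or whether the libraries came from separate cultures. A legend of the study calls 2 replicates biologically independent, whereas its methods give a higher number of biological replicates. P values therefore measure only the spread between these libraries, which may be technical. The comparison asks whether genes of DNA replication changed their level when long-chain fatty acid β-oxidation was inhibited.

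Before S phase, Cdc6 and Cdt1 join the origin recognition complex on DNA and load the ring of Mcm2 to Mcm7 as an inactive double hexamer. The ring becomes a working helicase when Cdc45 and the GINS complex bind it, and Mcm10 is needed for it to start unwinding. Geminin, encoded by Gmnn, binds Cdt1 and blocks further loading once S phase has begun. Transcription of these genes is known to be driven in cycling cells by E2F factors, and cleavage-stage embryos pass through rapid cycles with short gap phases.

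The tables give FPKM, the fragments of a gene divided by its length and by the fragment total of the library, and list no gene names. Each entry was named from the gene length that its values imply and from its place in the order of Ensembl identifiers. All 10 genes were named in both tables, with posterior probabilities of at least 0.9619 in the 8-cell table and 0.9999 in the morula table. The lowest value belonged to Cdc45, whose name in the morula table also rested on the length found in the 8-cell table. For Mcm2, Mcm7 and Cdc6 the recovered length was that of the annotation, and for the other 7 it was shorter. Of the 20 entries around a member, 18 to 20 were named, and around Cdc45, where 11 entries were looked at, all 11 were. Only 0 to 8 of these neighbours had the annotated length, and around Mcm2 it was 0 at both stages. The library totals ran from 31672356 to 64814423 fragments. Behind the members' values stood 655 to 12214 fragments in the 8-cell libraries and 442 to 5734 in the morula libraries, with the fewest for Mcm2 at both stages. Entries named Gapdh and Tuba1b had unusually low values of 0.938 to 3.03 and 2.07 to 8.17 FPKM, a doubt about single names that stands for any gene here.

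In GRCm39 the ring genes lie on separate chromosomes except for Mcm3 and Mcm6. Mcm2 lies at chr6:88860452-88875762 on the minus strand, Mcm3 at chr1:20870791-20890536 on the minus strand, and Mcm4 at chr16:15440211-15455264 on the minus strand. Mcm5 lies at chr8:75836140-75856231 on the plus strand, Mcm6 at chr1:128259311-128287516 on the minus strand, and Mcm7 at chr5:138162844-138170684 on the minus strand. Mcm10 lies at chr2:4994516-5017629 and Cdc45 at chr16:18599195-18631551, both on the minus strand. Cdc6 lies at chr11:98798507-98814766 and Cdt1 at chr8:123294703-123300293, both on the plus strand. Exons of Mcm7 overlap those of Ap4m1 and Cops6 on the other strand and the microRNA genes Mir25 and Mir93 on its own. Exons of Cdc45 overlap those of Ufd1 on the other strand over 10.6% of their length. The strand setting of the counting is not given in the sources used here, so reads of these stretches cannot be told apart. Of the 31-base stretches of the exons, 25.1% for Cdc6 and 18.2% for Mcm7 occur elsewhere in GRCm39, against 0.243% to 4.05% for the other 8 genes. These shares and overlaps are over all annotated exons, which for each member exceed the recovered length (6263 against 3752 bases for Mcm3). They can therefore include exons that were not counted.

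The starts of 6 members hold an octamer of the type that E2F factors bind. The search covered windows from 250 bases before to 50 bases after RefSeq gene starts and looked on both strands for TTTCCCGC, TTTCGCGC, TTTGCCGC and TTTGGCGC. Of the members 9 have such a window, 10 windows in all, and an octamer was found for Mcm3, Mcm5, Mcm6, Mcm7, Cdc6 and Cdt1. Among all genes with such a window, 704 of 27025 (2.6%) hold one, and so do 744 of 32851 windows (2.26%). The letters CCAAT, on either strand, were found for 7 of the 9 members and for 41.1% of all genes. Mcm4 is not in the promoter table. Mcm2, Mcm10 and Cdc45 have a window without an octamer. Whether the letters go with the change under TMZ was not tested, and the sequences are shown as a description. RefSeq gives the windows in GRCm38.p6, and the positions here come from an exact match of each window to GRCm39. They read 5′ to 3′ on the strand of the gene, with 1 octamer in capitals, and stretches after the start are kept short.
Mcm6, chr1:128287466-128287505, 63 to 24 bases before the start: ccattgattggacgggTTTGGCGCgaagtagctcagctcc
Mcm6, chr1:128287529-128287568, 126 to 87 bases before the start: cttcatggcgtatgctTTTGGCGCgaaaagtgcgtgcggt
Mcm5, chr8:75835968-75836007, 169 to 130 bases before the start: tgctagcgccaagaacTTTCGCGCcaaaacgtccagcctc
Mcm7, chr5:138170287-138170326, 181 to 142 bases before the start: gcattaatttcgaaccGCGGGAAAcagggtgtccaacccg
Cdc6, chr11:98798823-98798862, 154 to 115 bases before the start: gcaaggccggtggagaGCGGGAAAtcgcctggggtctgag
Mcm3, chr1:20890487-20890509, bases 28 to 50 after the start: acttgggaagtTTTGGCGCcaag
Cdt1, chr8:123294775-123294803, bases 22 to 50 after the start: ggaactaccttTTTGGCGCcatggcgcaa
In the window of Mcm5 and in the upstream window of Mcm6 an octamer on the other strand overlaps the one in capitals. Further octamers of Mcm3, at bases 20 to 27 after the start, and of Mcm7, at bases 17 to 24 after the start, are not shown. A match of letters is a description of these windows, not a site.

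At the morula stage 6 of the 10 genes were lower with TMZ, namely Mcm2, Mcm3, Mcm5, Mcm7, Mcm10 and Cdt1, and none was higher, against 10.7% of all entries tested called lower and 7.16% called higher. Without TMZ replicate 2 fewer of them were called, and the median log2 fold change of the members was -0.50, against -0.055 for all entries. No member passed an adjusted p of 0.05 with all libraries. Mean FPKM of the 6 fell by 32.7% (Mcm7) to 54.6% (Mcm10). Mcm4, Mcm6 and Cdc6 stood below control by smaller amounts that did not pass the threshold, and Cdc45 stood at the control level. At the 8-cell stage no member passed it in either direction. The threshold was an unadjusted P under 0.05 with a log2 fold change beyond 0.5 in either direction, limits taken from the study and applied here to limma in place of its DESeq2 test on counts, and adjusted p-values are given beside it. Cell number and RNA per cell cannot be told apart in such libraries, since FPKM is a share of each library's RNA.

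**Figure D1:**
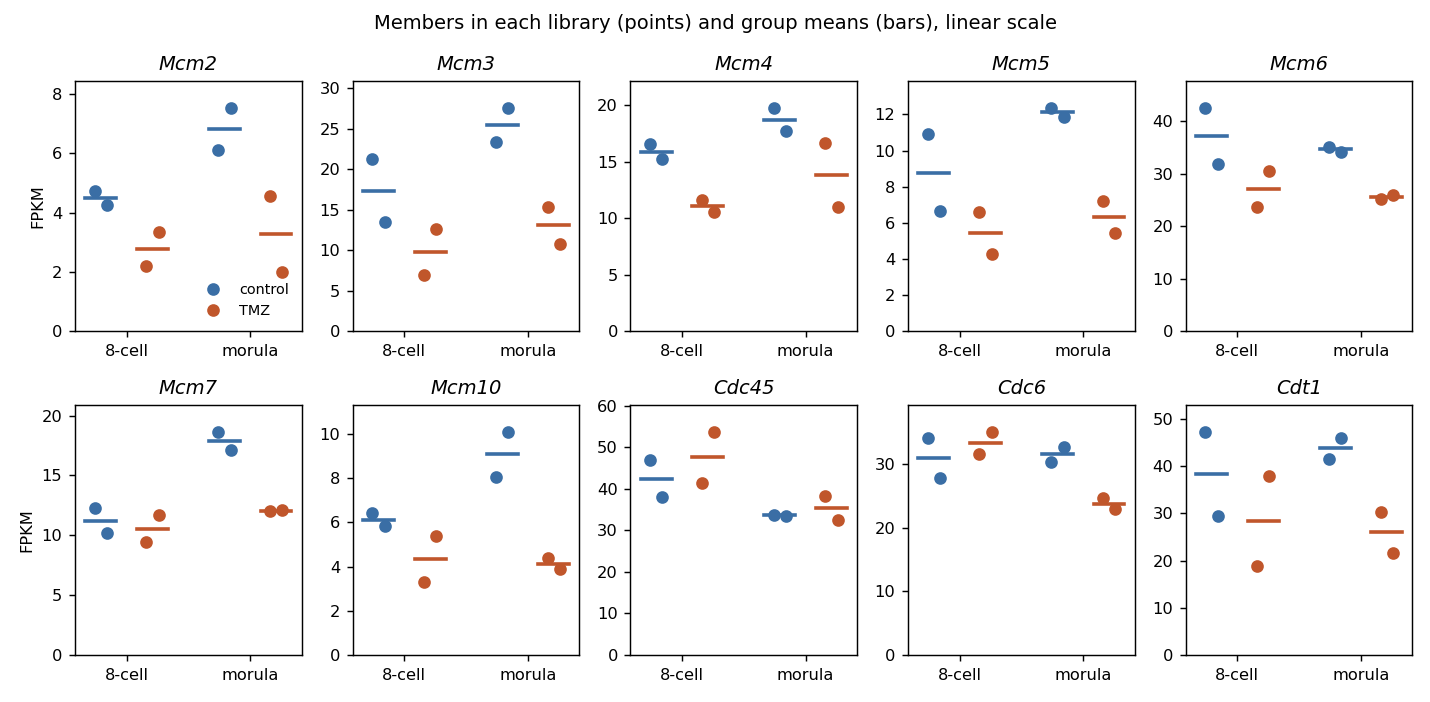
FPKM of each member (y axes, linear, starting at 0) in the 2 control (blue) and 2 TMZ (orange) libraries at the 8-cell and morula stages, with points for libraries and bars for group means. At the morula stage both TMZ points lie below both control points for every gene except Cdc45.

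Among the ring subunits, Mcm3 had one of the largest differences. Mcm3 stood at 21.2 and 13.5 FPKM in the 8-cell control libraries and at 6.96 and 12.7 FPKM in TMZ libraries A and B. Morula control libraries had 23.4 and 27.6 FPKM and TMZ morulae 15.4 and 10.8 FPKM. Both TMZ libraries lay below both control libraries at each stage, with a narrow gap at the 8-cell stage and a wide one in morulae. Its log2 fold change, on log2(FPKM + 1), was -0.78 ± 0.41 (SE) at the 8-cell stage (adjusted p = 0.786) and -0.92 ± 0.23 in morulae (adjusted p = 0.167). Without 8-cell TMZ library B the 8-cell value of Mcm3 was -1.17 and past the threshold, in a refit that called 15.8% of all entries lower. Leaving out control replicate 1 gave -0.47, and leaving out TMZ library A gave -0.39.

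Mcm5, which in the ring sits beside Mcm3 and forms with Mcm2 the gate through which DNA enters, moved in the same way. It had 10.9 and 6.64 FPKM in 8-cell control against 6.61 and 4.25 FPKM with TMZ. Morulae had 12.4 and 11.9 FPKM in control against 7.18 and 5.44 FPKM with TMZ. The 8-cell groups almost touched, while the morula control libraries agreed closely and lay well above both TMZ libraries. Its log2 fold change was -0.59 ± 0.41 at the 8-cell stage (adjusted p = 0.809) and -0.85 ± 0.21 in morulae (adjusted p = 0.167). The 8-cell value of Mcm5 was -0.28 without control replicate 1, -0.33 without TMZ library B and -0.92 without control replicate 2.

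Mcm2, the other subunit of the gate and a subunit with a histone-binding tail, had the lowest FPKM of the ring at both stages and in all 8 libraries. FPKM divides by the recovered length, which was 6956 bases for Mcm2 and 3993 for Mcm5. By fragments Mcm2 stood above Mcm5 in some libraries (1511 against 1100 in 8-cell TMZ library B). In others it stood below (442 against 688 in morula TMZ replicate 2). Mcm2 had 4.72 and 4.26 FPKM in 8-cell control against 2.19 and 3.35 FPKM with TMZ. The morula libraries stood at 6.12 and 7.53 FPKM in control and at 4.55 and 2.01 FPKM with TMZ. No TMZ library reached a control library at either stage, but the TMZ morulae differed from each other by more than any other group of Mcm2. For Mcm2 the log2 fold change was -0.56 ± 0.39 at the 8-cell stage (adjusted p = 0.809) and -0.93 ± 0.32 in morulae (adjusted p = 0.212), and the morula call was lost without TMZ replicate 2 (-0.49) or without control replicate 2 (-0.80). Without 8-cell TMZ library A the 8-cell value of Mcm2 was -0.33.

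Mcm4, Mcm6 and Mcm7 form the other side of the ring and together have helicase activity in vitro. Mcm4 stood at 16.5 and 15.2 FPKM in 8-cell control and at 11.6 and 10.5 FPKM with TMZ. The morula values were 19.8 and 17.7 FPKM in control and 16.6 and 10.95 FPKM with TMZ. The groups did not overlap at either stage, with a clear gap at the 8-cell stage and a narrow one in morulae. Its log2 fold changes of -0.48 ± 0.33 in 8-cell embryos (adjusted p = 0.809) and -0.44 ± 0.24 in morulae (adjusted p = 0.332) did not pass the threshold, and the morula value was -0.72 and past the threshold without morula TMZ replicate 1 but -0.16 without TMZ replicate 2. Prkdc, whose start lies 434 bases from that of Mcm4 on the other strand and which encodes the catalytic subunit of DNA-dependent protein kinase, had log2 fold changes of 0.59 ± 0.42 (adjusted p = 0.809) and 0.31 ± 0.24 (adjusted p = 0.478).

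Mcm6 was the most abundant ring subunit in every library. It had 42.6 and 31.9 FPKM in 8-cell control against 23.6 and 30.5 FPKM with TMZ. Control morulae had 35.1 and 34.2 FPKM and TMZ morulae 25.2 and 25.9 FPKM. Replicates of the morula groups were close together and the groups clearly apart. The log2 fold change in morulae, -0.43 ± 0.16 (adjusted p = 0.233), did not reach the fold of the threshold although its unadjusted P did, and at the 8-cell stage it was -0.44 ± 0.32 (adjusted p = 0.816). The 8-cell value of Mcm6 was -0.24 without control replicate 1 and -0.26 without TMZ library A.

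Mcm7 was the ring subunit whose 8-cell groups overlapped. It had 12.3 and 10.2 FPKM in 8-cell control against 9.41 and 11.7 FPKM with TMZ, and the higher TMZ library lay between the control libraries. The morula control libraries had 18.7 and 17.1 FPKM against 11.999 and 12.077 FPKM with TMZ, with no overlap. The log2 fold change of Mcm7 was -0.08 ± 0.35 at the 8-cell stage (adjusted p = 0.981), a sign that turned to 0.15 under median-ratio scaling. In morulae it was -0.53 ± 0.18 (adjusted p = 0.208), and under that scaling it was -0.44 and no longer past the threshold. The call of Mcm7 was also lost without morula control replicate 1 (-0.47), TMZ replicate 1 (-0.53) or TMZ replicate 2 (-0.54).

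Mcm10 and Cdc45 act on the loaded ring. Mcm10 had 6.41 and 5.86 FPKM in 8-cell control against 3.30 and 5.37 FPKM with TMZ. Its morula values were 8.05 and 10.1 FPKM in control against 4.38 and 3.87 FPKM with TMZ. The groups did not overlap at either stage, and the morula log2 fold change of -0.97 ± 0.22 (adjusted p = 0.167) was close to that of Mcm2. With a pseudocount of 0.1 FPKM the values were -1.11 for Mcm10 and -1.14 for Mcm2. The 8-cell value of Mcm10 was -0.45 ± 0.39 (adjusted p = 0.843), and it was -0.16 without TMZ library A and -0.73 without library B.

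Cdc45 had 46.9 and 38.0 FPKM in 8-cell control against 41.4 and 53.7 FPKM with TMZ. Morulae had 33.7 and 33.5 FPKM in control against 38.3 and 32.3 FPKM with TMZ. The groups overlapped at both stages. The log2 fold changes were 0.16 ± 0.31 (adjusted p = 0.94) and 0.07 ± 0.17 (adjusted p = 0.852). Relative to the mean of the 6 ring subunits, Cdc45 stood at 2.60 and 2.79 in 8-cell control against 4.11 and 4.42 with TMZ, and at 1.75 and 1.73 in morula control against 2.84 and 2.89 with TMZ. This ratio of FPKM levels was higher in both TMZ libraries at each stage. The ring itself had median log2 fold changes of -0.52 at the 8-cell stage and -0.69 in morulae, against -0.19 and -0.08 for all entries. Any gene that did not fall with the ring would therefore have a higher ratio, so this is not a trait of Cdc45 alone.

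Of the loading factors, Cdt1 passed the threshold in morulae and Cdc6 did not. Cdt1 had 47.3 and 29.4 FPKM in 8-cell control against 18.8 and 37.8 FPKM with TMZ, so that the groups overlapped. Morula control libraries had 41.5 and 46.0 FPKM against 30.2 and 21.7 FPKM with TMZ, with a clear gap. For Cdt1 the log2 fold change was -0.47 ± 0.41 at the 8-cell stage (adjusted p = 0.839) and -0.75 ± 0.21 in morulae (adjusted p = 0.176). Without 8-cell TMZ library A the 8-cell value was 0.02, without control replicate 1 it was -0.13, without control replicate 2 it was -0.80, and without library B it was -0.95 and past the threshold. Without morula TMZ replicate 2 the morula value was -0.52 and no longer past it.

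Cdc6, the ATPase that brings Cdt1 and the ring to the origin recognition complex, had 34.2 and 27.9 FPKM in 8-cell control against 31.6 and 35.2 FPKM with TMZ. In morulae Cdc6 had 30.5 and 32.7 FPKM in control against 24.7 and 22.9 FPKM with TMZ. The 8-cell groups overlapped and the morula groups did not. For Cdc6 the log2 fold change was 0.11 ± 0.31 at the 8-cell stage (adjusted p = 0.968) and -0.39 ± 0.17 in morulae (adjusted p = 0.266), neither past the threshold.

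Gmnn, which encodes the inhibitor of Cdt1, stood in the opposite direction. It had 231 and 289 FPKM in 8-cell control against 344 and 371 FPKM with TMZ. Morulae had 208 and 228 FPKM in control against 274 and 311 FPKM with TMZ. Both TMZ libraries lay above both control libraries at each stage. Its log2 fold change was 0.47 ± 0.26 at the 8-cell stage (adjusted p = 0.79) and 0.42 ± 0.15 in morulae (adjusted p = 0.215), below the fold of the threshold. The ratio of Gmnn to Cdt1 FPKM was 5.00 and 4.97 in morula control against 9.07 and 14.4 with TMZ, and 4.87 and 9.81 in 8-cell control against 18.3 and 9.80 with TMZ.

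**Figure D2:**
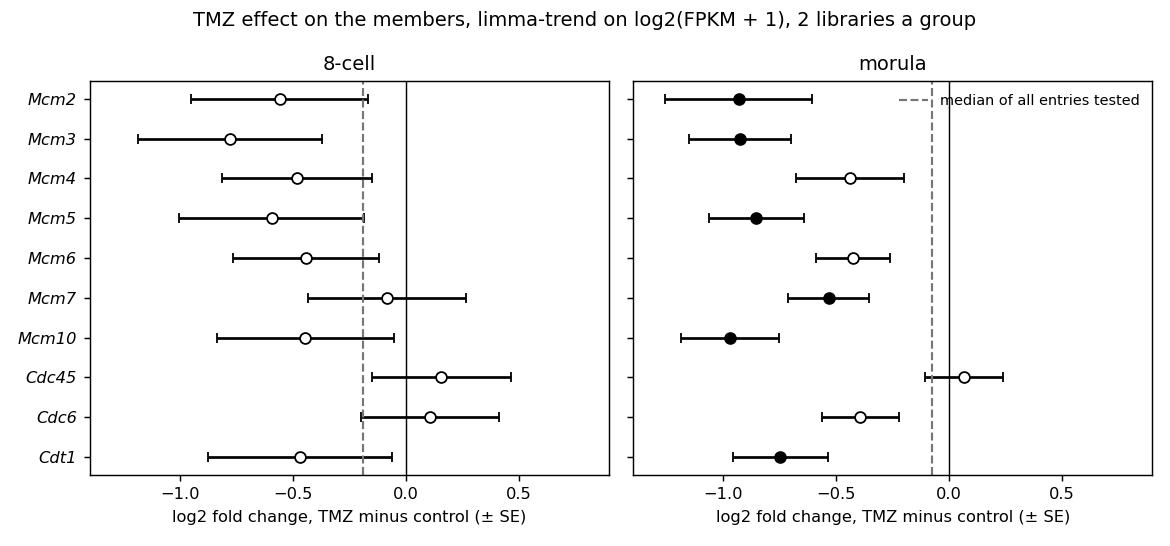
Log2 fold change of TMZ minus control on log2(FPKM + 1) for each member (x axis) with its SE, at the 8-cell stage (left) and in morulae (right); filled points passed the threshold, and the dashed line is the median of all entries tested. At the 8-cell stage no point is filled, and the sign of Mcm7 there turned under median-ratio scaling. In morulae the 6 filled points lie between -0.97 and -0.53.

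Counted against the threshold, 6 of 10 members were called lower in morulae and 0 higher, against 10.7% and 7.16% of the 9685 entries tested. In 8-cell embryos 0 members were called lower and 0 higher, against 4.96% and 1.35% of 10021 entries, and 0 members had an unadjusted P under 0.05. The 8-cell SEs were larger, from 0.31 to 0.41 against 0.16 to 0.32 in morulae, so that a change of the size seen in morulae could be missed at the 8-cell stage. Without morula TMZ replicate 2 fewer members were called, and their median log2 fold change was -0.50, against -0.055 for all entries. The 8-cell median of the members was -0.52 without TMZ library B, against -0.30 for all entries. Without library A it was -0.21, against -0.11. limma voom on the recovered fragments also called 6 members lower in morulae, against 12.9% of all entries. At the 8-cell stage it called 0 members lower or higher, against 3.36% and 1.06%. At a Benjamini-Hochberg adjusted p under 0.05, limma-trend called 0 members at either stage, 0 entries at the 8-cell stage and 3 in morulae.

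Counted by overlap alone, both TMZ libraries lay below both control libraries for 6 members at the 8-cell stage (Mcm2 to Mcm6 and Mcm10), against 29.6% of all entries. In morulae they did for 9 members, all but Cdc45, against 33.3% of all entries. At each of the stages they did for 6 members, 5 of them ring subunits, against 11.5% of genes tested at both stages. For no member did both TMZ libraries lie above both controls at either stage, but the share of all entries lying above was not counted.

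The members had a median log2 fold change of -0.46 in 8-cell embryos, against -0.19 for all entries tested, and -0.64 in morulae, against -0.08. The entries as a whole thus stood lower with TMZ at the 8-cell stage. Scaling the libraries by median ratios moved the 8-cell median of all entries to 0.01 and that of the members to -0.23. In morulae it moved them to 0.00 and -0.55, and 5 members remained past the threshold, Mcm7 being lost. Over all entries the same scaling changed the split of lower and higher calls from 497 and 135 to 280 and 268 at the 8-cell stage, and from 1040 and 693 to 772 and 946 in morulae. The 8-cell TMZ library A had 19466 entries above 0, against 21813 to 25336 in the other 8-cell libraries. Its scale factor was 0.841, against 1.005 to 1.15 for the other 8-cell libraries and 0.955 to 1.07 for the morula libraries. Without that library the 8-cell median of the members was -0.21, against -0.11 for all entries.

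In a fit of all 8 libraries with the stage as a term, 5 members were called lower and 0 higher, against 9.15% and 2.19% of 9275 genes. These were Mcm3 (-0.85 ± 0.23, adjusted p = 0.242), Mcm2 (-0.74 ± 0.24, adjusted p = 0.256), Mcm5 (-0.72 ± 0.22, adjusted p = 0.253), Mcm10 (-0.71 ± 0.21, adjusted p = 0.253) and Cdt1 (-0.61 ± 0.25, adjusted p = 0.296). Mcm4 and Mcm6 had log2 fold changes of -0.46 ± 0.17 (adjusted p = 0.279) and -0.43 ± 0.16 (adjusted p = 0.276), both with an unadjusted P under 0.05 but short of the fold. Mcm7 stood at -0.31 ± 0.18 (adjusted p = 0.414), Cdc6 at -0.14 ± 0.17 (adjusted p = 0.692) and Cdc45 at 0.11 ± 0.16 (adjusted p = 0.751). Under median-ratio scaling Cdc6 turned to 0.02, and 4 members were called lower, Cdt1 being lost, against 4.04% of all genes. The call of Cdt1 was also lost without 8-cell control replicate 1 (-0.50), 8-cell TMZ library A (-0.44), morula control replicate 1 (-0.61) or 2 (-0.55), or morula TMZ replicate 2 (-0.49). The lowest adjusted p of a member in this fit was 0.242, by limma.

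The difference of the TMZ effect between the stages was tested by the interaction term. It had a P under 0.05 for 0 of the 10 members, against 7.71% of 9275 genes. The most negative difference, morula minus 8-cell, was that of Mcm10, -0.53 ± 0.41 (adjusted p = 0.885), followed by Cdc6 with -0.50 ± 0.31 (adjusted p = 0.789) and Mcm7 with -0.45 ± 0.34 (adjusted p = 0.88). Differences of Mcm4 and Mcm6 were 0.04 ± 0.37 and 0.02 ± 0.33. The calls in morulae and not at the 8-cell stage are therefore not shown to differ between the stages.

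The 6 subunits enter the ring in equal numbers, while their FPKM spanned a wide range. In control libraries the highest, Mcm6, stood 7.49 to 9.03 times above the lowest, Mcm2, at the 8-cell stage and 4.55 to 5.73 times in morulae. With TMZ the span was 9.11 to 10.8 times at the 8-cell stage and 5.53 to 12.9 times in morulae. By FPKM Mcm6 came first, Mcm5 next to last and Mcm2 last in all 8 libraries, and only Mcm3, Mcm4 and Mcm7 changed places. The span and the place of Mcm2 depend on the recovered lengths by which FPKM divides. By fragments Mcm2 was not last in every library.

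The summed FPKM of the ring was 108 and 81.6 in 8-cell control against 60.4 and 73.0 with TMZ. The morula sums were 115.4 and 116.0 in control against 80.9 and 67.2 with TMZ. Both TMZ libraries lay below both control libraries at each stage, by a narrow gap at the 8-cell stage and a wide one in morulae.

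Within this sum the share of Mcm6 was 30.4% and 29.5% in morula control and 31.1% and 38.6% with TMZ. The share of Mcm3 was 20.2% and 23.8% in morula control and 19.0% and 16.1% with TMZ. That of Mcm5 was 10.7% and 10.2% in control and 8.87% and 8.10% with TMZ. In morulae Mcm3 and Mcm5 thus held smaller shares, and Mcm6 a larger share, in both TMZ libraries, whereas the shares of Mcm2, Mcm4 and Mcm7 overlapped between the groups. With 2 libraries a group such a separation is common. By FPKM 33.3% of all entries had both TMZ libraries below both control libraries in morulae. The shares were not tested.

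In 8-cell embryos the share of Mcm7 was 11.3% and 12.5% in control and 15.6% and 16.01% with TMZ, and those of the other 5 overlapped between the groups. The share of Mcm3 there was 19.6% and 16.5% in control and 11.5% and 17.4% with TMZ. No share stood apart in the same direction at both stages. Shares of a sum depend on each other, so 1 subunit that falls raises the shares of the rest.

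**Figure D3:**
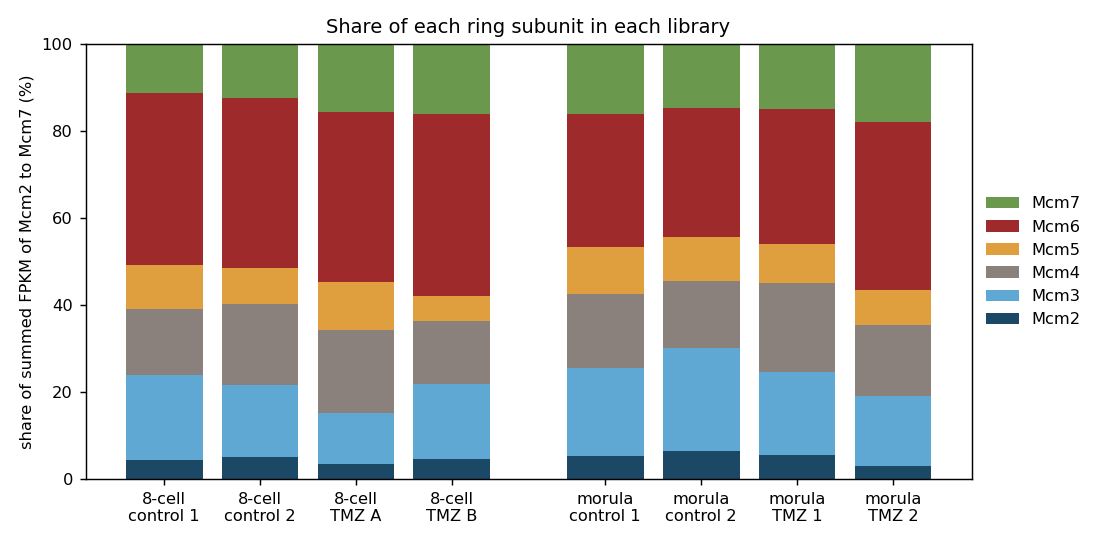
Share of each ring subunit in the summed FPKM of Mcm2 to Mcm7 (y axis, percent) in each of the 8 libraries (x axis), with 1 colour a subunit. Mcm6 holds the largest share in every library, from 29.5% to 41.8%, and Mcm2 the smallest, from 2.99% to 6.49%.

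Ordered by level over all 10 genes, 8-cell control embryos had Cdc45, Cdt1, Mcm6 and Cdc6 at the top, with means of 42.4, 38.4, 37.2 and 31.1 FPKM, and each overlapped its neighbour in the order. Mcm3 and Mcm4 overlapped in their ranges, as did Mcm7 and Mcm5, while Mcm10 and Mcm2 stood apart at the bottom. In morula control embryos the order was Cdt1, Mcm6, Cdc45, Cdc6, Mcm3, Mcm4, Mcm7, Mcm5, Mcm10 and Mcm2, and Mcm4 and Mcm7 were the one pair of neighbours whose ranges overlapped. With TMZ, Cdc45 came first and Mcm2 last at both stages.

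Side by side and without a test, since the tables were normalized separately, control means went from 4.49 FPKM at the 8-cell stage to 6.83 in morulae for Mcm2, from 17.3 to 25.5 for Mcm3 and from 11.2 to 17.9 for Mcm7. Those of Cdc6 stayed near each other at 31.1 and 31.6 FPKM, and those of Cdc45 were 42.4 and 33.6 FPKM. With TMZ the means were 2.77 and 3.28 FPKM for Mcm2, 9.82 and 13.1 FPKM for Mcm3, and 10.5 and 12.04 FPKM for Mcm7.

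The rest of the replication machinery was looked at through 9 lists of 80 genes, of which 64 were tested at the 8-cell stage and 63 in morulae. Of those 3 were called lower (4.69%) and 2 higher at the 8-cell stage. In morulae 5 were called lower (7.94%) and 3 higher, and in the fit of both stages 4 lower (6.35%) and 1 higher. Each share of lower calls is below that of all entries. These genes had a median log2 fold change of -0.12 in 8-cell embryos and -0.07 in morulae, against -0.19 and -0.08 for all entries.

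The origin recognition complex, on which the ring is loaded, had 0 of 6 genes lower in morulae and Orc4 higher, at 27.4 and 16.9 FPKM in control against 34.7 and 44.8 FPKM with TMZ (log2 fold change 0.84 ± 0.27, adjusted p = 0.195). The 4 GINS genes, whose products join Cdc45 on the ring, had no call at either stage, with medians of -0.04 and 0.06. Dbf4, the regulatory subunit of the kinase that phosphorylates the ring, had log2 fold changes of 0.00 ± 0.34 and -0.10 ± 0.23. No entry was named Cdc7, the catalytic subunit. Mcm8, a paralogue that acts in recombination, had 3.23 and 2.12 FPKM in morula control against 2.61 and 1.21 FPKM with TMZ (log2 fold change -0.36 ± 0.31, adjusted p = 0.528).

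The list of licensing control and firing had 1 gene called lower and 1 higher in morulae among 14 tested, with a median log2 fold change of -0.13. Lrr1, the gene called higher, a substrate receptor of the ubiquitin ligase that marks Mcm7 at the end of replication, had 877 and 569 FPKM in control against 1159 and 1354 FPKM with TMZ (log2 fold change 0.83 ± 0.22, adjusted p = 0.173). Traip, the gene called lower, a ligase that acts on the helicase in mitosis, had 6.68 and 7.79 FPKM in control against 4.73 and 4.31 FPKM with TMZ (log2 fold change -0.58 ± 0.21, adjusted p = 0.215). Neither pair of groups overlapped. From the same list Wdhd1, which ties the helicase to polymerase alpha, was called lower in 8-cell embryos (-0.91 ± 0.40, adjusted p = 0.771), and Fbxo5, an inhibitor of the anaphase-promoting complex, was called higher there (0.95 ± 0.36, adjusted p = 0.771).

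At the fork, Pold2, a subunit of polymerase delta, was called lower at both stages, with 21.7 and 14.5 FPKM in 8-cell control against 9.28 and 7.73 FPKM with TMZ. In morulae Pold2 had 18.3 and 23.3 FPKM in control against 14.5 and 11.02 FPKM with TMZ (log2 fold change -0.66 ± 0.22, adjusted p = 0.207). Lig1, the ligase that joins Okazaki fragments, and Clspn, which encodes the checkpoint mediator claspin, were called lower in morulae, with log2 fold changes of -0.78 ± 0.32 (adjusted p = 0.254) and -0.78 ± 0.24 (adjusted p = 0.193). Pola2, a subunit of polymerase alpha, was called higher at the 8-cell stage (1.24 ± 0.42, adjusted p = 0.771) and stood at -0.37 ± 0.19 in morulae. The list of genes for nucleotide supply and histone mRNA had no call among 7 genes at either stage.

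Among the E2F and pocket protein genes, E2f4 was called lower at both stages, with 58.5 and 38.9 FPKM in 8-cell control against 30.3 and 23.9 FPKM with TMZ. Morulae had 51.4 and 53.1 FPKM in control against 41.2 and 30.7 FPKM with TMZ (log2 fold change -0.54 ± 0.20, adjusted p = 0.216). E2f5 was called higher in morulae, at 4.65 and 4.14 FPKM in control against 8.71 and 7.35 FPKM with TMZ. E2f1 was called lower in the fit of both stages (-0.56 ± 0.25, adjusted p = 0.321).

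**Figure D4:**
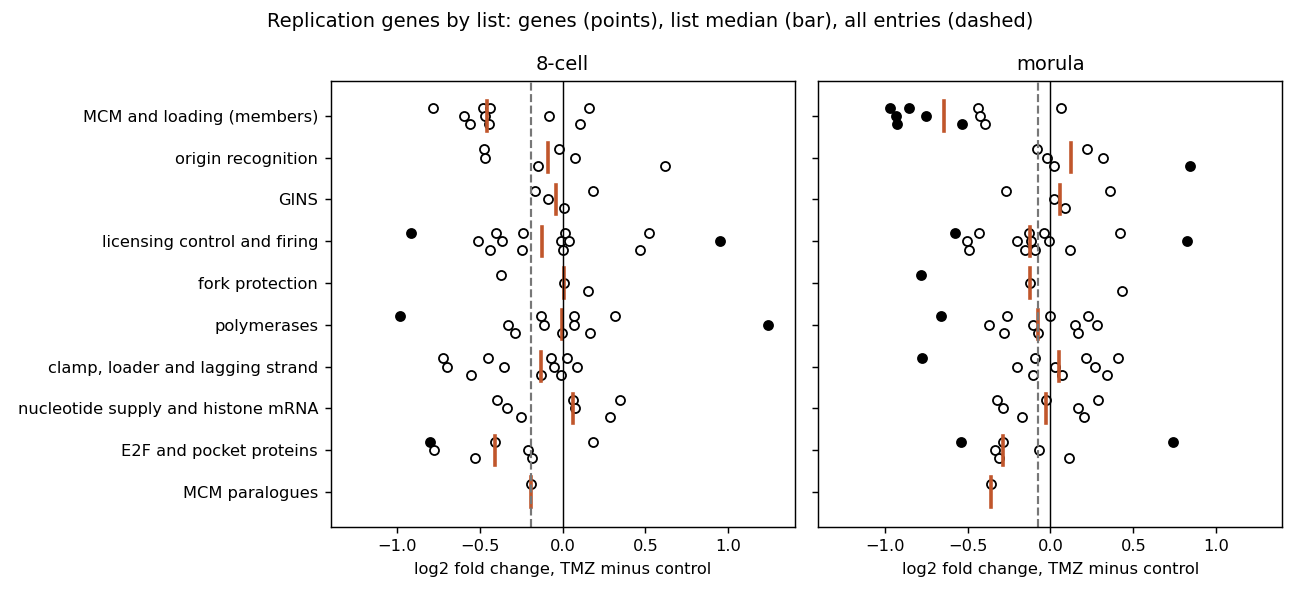
Log2 fold change of TMZ minus control on log2(FPKM + 1) (x axis) for each tested gene of the replication lists (rows) at the 8-cell stage (left) and in morulae (right), filled where the threshold was passed; orange bars are list medians and the dashed line is the median of all entries. In morulae 6 of the 10 members are filled on the left side, against 5 of the 63 other replication genes.

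Most of the tested markers of blastomeres were also lower in morulae. Of 12 tested genes of this list 9 were called lower with TMZ in morulae and 0 higher, against 10.7% and 7.16% of all entries. Their median log2 fold change was -0.75, and 11 stood below 0. Dppa3 stood above it (0.40 ± 0.16, adjusted p = 0.252). In 8-cell embryos 0 of 11 were called, against 4.96% of all entries lower and 1.35% higher, and their median was -0.23. Pou5f1, which encodes the pluripotency factor OCT4, had 30.2 and 42.4 FPKM in morula control against 19.0 and 11.03 FPKM with TMZ, and Nanog had 25.3 and 27.5 FPKM against 13.9 and 11.9 FPKM. The summed level of the 13 named markers, most of it from Dppa3, was 11170 and 13570 FPKM in morula control and 14360 and 17800 FPKM with TMZ, and Sox2 was at 0 in all morula libraries. Of 10 cumulus and granulosa markers 5 were named at each stage, not the same 5, and those summed to at most 0.213 FPKM in any library. For the 8 markers of oocytes the sum was 12.4 and 19.9 FPKM in morula control against 12.1 and 15.8 FPKM with TMZ. The 5 named of 7 transcripts of the 2-cell stage summed to at most 0.573 FPKM in any morula library. In 8-cell embryos their sum was 12.4 and 0.877 FPKM in control against 6.29 and 5.20 FPKM with TMZ. Of the 2 tested there, 0 were called lower and Zscan4d was called higher. It had 0.345 and 0.163 FPKM in control against 3.89 and 2.45 FPKM with TMZ (log2 fold change 1.72 ± 0.38, adjusted p = 0.62). Of the 9 mitochondrially encoded genes listed as a sign of RNA quality, mt-Co1, mt-Co3 and mt-Cytb were called higher and mt-Co2 lower in morulae, and their sum was 13970 and 7537 FPKM in control against 14460 and 13900 FPKM with TMZ. In 8-cell embryos 0 of the 9 were called, and their sum was 16590 and 26970 FPKM in control against 13440 and 25700 FPKM with TMZ. What part the markers of blastomeres or the mitochondrially encoded genes had in the values of the members was not tested.

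By the rule for likeness, the genes outside all lists whose log2(FPKM + 1) followed the mean of Mcm2 to Mcm7 most closely over the 8 libraries were Prmt5, Srpra and Ncaph2, with Pearson's r of 0.997, 0.993 and 0.987 among 9176 genes. These are descriptions over 8 libraries that share stage, treatment and library scale. Prmt5, which encodes an arginine methyltransferase, had 68.6 and 71.2 FPKM in morula control against 52.1 and 41.3 FPKM with TMZ. Srpra encodes a subunit of the signal recognition particle receptor and Ncaph2 a subunit of condensin II. Measured in the same way, each ring subunit against the mean of the other 5, r was 0.702 for Mcm6, 0.786 for Mcm7 and 0.841 to 0.943 for the other 4. Mcm10 had 0.914 and Cdt1 0.852 against the mean of the ring, while Cdc6 had 0.308 and Cdc45 -0.295.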

How the data were processed

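RNA of control and TMZ embryos was sequenced at 2 stages with 2 libraries a group, after full-length amplification of mRNA. According to the submitters' processing notes and the methods of the study, the authors trimmed reads with fastp 0.23.4, aligned them to GRCm39 with STAR 2.7.9a and counted fragments with featureCounts 2.0.6. The values the authors deposited are FPKM, in a table for each stage without gene names. The annotation release and strand setting are not given in the sources used here. In the 8-cell table the TMZ columns bear 1 common name, and A and B stand for them here. No column was left out.

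Library totals and gene lengths were recovered from the whole-number fragments that FPKM values imply. A pair hidden Markov model aligned the lengths of 31899 entries of the 8-cell table and 29202 of the morula table, in order, to exon-union lengths of GENCODE vM39 genes up to transcript number 250000. Names with a posterior of at least 0.95 were kept, 27545 and 25160. Of 7870 genes with a mean of at least 1 FPKM named independently in both tables, 7866 had compatible lengths. For 4922 of them the recovered length was not the annotated one, and 4921 of those had compatible lengths in both tables. The check compares the tables with each other, so a wrong name shared by both would pass it. With decoy genes present, 2 of 8983 and 2 of 8457 expressed entries were given to decoys, which scaled to all genes is 0.445% and 0.473%. The decoys were run in the first alignment only. Names that rested on a length found in the other table were not measured by them.

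TMZ was compared with control by limma-trend (limma 3.58.1, R 4.3.3) on log2(FPKM + 1), two-sided, on all entries whose mean reached 1 FPKM, with Benjamini-Hochberg adjusted p-values over all of them. A fold change on this scale understates the change of low genes. The study's test on counts was not repeated, since the tables hold FPKM, and voom ran on the recovered fragments. The fits were tested on simulated data. The members and lists were chosen with earlier results of these data known. Named are all members, the genes of the replication lists past the threshold in the fit of the 8-cell stage, of morulae or of both stages, Gmnn, Dbf4, Cdc7, neighbours whose start lies within 1000 bases on the other strand and the 3 genes outside the lists most like the mean of the ring. Mcm8, Pou5f1, Nanog, Dppa3, Sox2 and Zscan4d were named from their lists after their values were seen. The alternatives were other pseudocounts, filters, scaling, voom, other rules on names, a fit of all libraries, a replicate block and leaving out each library.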

Additional observations from a re-analysis of the deposited data

How the results depend on the processing

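In morulae the 6 lower calls among the members became 2 when entries were kept only at the exact annotated length, which leaves 3 members (Mcm2, Mcm7 and Cdc6). With each library left out in turn the median of the members ranged from -0.85 to -0.50. It was -0.50 without morula TMZ replicate 2, where fewer members were called, against -0.055 for all entries. At the 8-cell stage the 0 calls became 1 in the fit of all 8 libraries (Mcm3) and 0 to 2 when a library was left out, the 2 without TMZ library B (Mcm3 and Cdt1), when 15.8% of all entries were called lower. The 8-cell median ranged from -0.58 to -0.21, and at the exact length it was -0.084, which lay 0.17 above the median of all entries. In the fit of both stages the 5 calls became 1, and the median -0.53 became -0.31, at the exact length. Leaving out each library gave medians from -0.64 to -0.46. The shares of all entries called lower at the exact length and in the fit of all 8 libraries are not given here, so these counts cannot be set beside a general rate. No alternative gave a member called higher.

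The sign of a member's log2 fold change turned at the 8-cell stage for Mcm7 under median-ratio scaling (0.146), without control replicate 1 (0.037) and without TMZ library A (0.059), for Cdt1 without TMZ library A (0.017), for Cdc6 without control replicate 2 (-0.035), and for Cdc45 without TMZ library B (-0.027). In morulae it turned for Cdc45 without TMZ replicate 1 (-0.054), and over both stages it turned for Cdc6 under median-ratio scaling (0.024). Leaving a library out leaves 1 in its group, which is then assumed to vary like the others. Beyond these, single calls in morulae were lost for Mcm2 with no filter on low values (-0.93) and in the fit of all libraries for Mcm7 (-0.53) and Cdt1 (-0.75).

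With each library left out in turn the 8-cell values ran from -0.227 to 0.059 for Mcm7, -0.027 to 0.342 for Cdc45, -0.035 to 0.247 for Cdc6 and -0.951 to 0.017 for Cdt1, and the morula values of Cdc45 from -0.054 to 0.185.

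In morulae the numbers of the libraries are shared by both groups. A fit with the replicate block also called 6 members lower, with a median of -0.64, against 11.9% of all entries called lower. Same-numbered morula libraries deviated together with a correlation of 0.08 over 9685 entries, and nothing in the labels pairs them. No paired analysis was possible at the 8-cell stage because both TMZ columns carry the same header. At least 442 fragments stood behind each value of a member. The effect of depth or of the number of libraries on the calls was not tested.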
